A study of Mus musculus with 4 samples.

Results

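The 7 genes described here make up the aryl hydrocarbon receptor pathway as it could be read on the array: the receptor gene Ahr, its partner Arnt, its repressor Ahrr and the target genes Cyp1a1, Cyp1b1, Tiparp and Nqo1. They were chosen by gene symbol, as all non-control probes that carry one of these names in the scanner files, which gave 12 probes. Of the 26680 named genes on the array these are 7, and of the 19151 genes bright enough to test they are again 7, since all 12 probes were well above background on all 4 arrays. The samples were CD4+ T cells from miR-155-/- mice (2 arrays) and from miR-155+/+ mice (2 arrays), with no strain, age or sex in the labels. Both genotypes were cultured in the same way, with antibodies to CD3e and CD28 and with TGF-beta and IL-6, a mixture that directs CD4+ T cells towards the T helper 17 (Th17) fate. From both, cells positive for CD4 and for a red fluorescent protein (RFP) that reports IL-17F were sorted, so each RNA sample comes from cells selected on the reporter. The design text calls the samples biological replicates without naming the animals or cultures behind them, and the p-values cover only the spread among these samples, which may in part be technical.

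AHR is a transcription factor of the bHLH-PAS family that waits in the cytosol with HSP90 until it binds a ligand, such as dioxin or a breakdown product of tryptophan. It then enters the nucleus, pairs with ARNT and binds the xenobiotic response element, whose core letters are GCGTG. Target genes include the cytochrome P450 genes Cyp1a1 and Cyp1b1, and the genes Ahrr and Tiparp, whose products act back on AHR and limit its activity. Among T helper cells AHR is known for its high expression in Th17 cells, where ligands raise IL-22 production.

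Precision here is limited by having 4 arrays. The share of spots well above background ran from 63.5% to 69.8% per array, and 0 spots were saturated. Knockout array 1 had a less even surface than the other 3 arrays, with a fitted multiplicative surface of SD 0.157, against 0.0498 to 0.0557, and nearly all of its bright spots lacked the correction for it. The arrays shared 1 slide, on which row 2 held both knockout arrays and row 1 both wild-type arrays. Genotype and position on the slide cannot be told apart. The array held 0 probes for miR-155 or its host gene, so the deletion itself was not measured. The mature microRNA missing from the knockout by label is shown with its seed, bases 2 to 8, in capitals, as given by RefSeq for chr16:84714143-84714165 of GRCm38.p6 on the plus strand.
mmu-miR-155-5p: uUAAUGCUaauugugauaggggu

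In the knockout cells, the receptor gene, both feedback genes and 1 of the 2 cytochrome genes had lower signals, while the other cytochrome gene and the partner gene differed by less than the spread between arrays. Cyp1b1 differed most, with a signal 2.58-fold lower in knockout cells. Ahr was 1.66-fold, Ahrr 1.45-fold and Tiparp 1.35-fold lower. Nqo1 was the only one of the 7 with a higher signal at an unadjusted p under 0.05, from a dim probe at the edge of the array. No gene of the 19151 passed limma's Benjamini-Hochberg adjusted p of 0.05, so none of these differences is a call over all genes. The smallest adjusted p of all genes was 0.254, which was also that of Cyp1b1, and 2174 genes had an unadjusted p under 0.05.

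At that unadjusted p, 4 of the 7 genes were lower, against 4.13% of all tested genes, and 1 of the 7 was higher, against 7.23%. The 7 genes were chosen with earlier results of these data known, so the counts set beside all genes are a description and not a test. Both knockout arrays lay below both wild-type arrays for the same 4 genes, against 22.4% of all tested genes, and above them for Nqo1, against 25.4%. Together 5 of the 7 had no overlap between genotypes, against 47.8% of all tested genes, so that a lack of overlap alone is common on these arrays. The difference was below 0 for 4 of the 7, against 47.6% of all tested genes, and above 0 for 3, against 52.4%. The median difference, log2 knockout minus wild type, was -0.43 over the 7 genes and 0.016 over all tested genes. Of all genes at an unadjusted p under 0.05, 63.7% were higher in knockout cells, a share that was 24.9% with median scaling, 51.6% with quantile scaling and 51.3% with neighbourhood centring. In RNA from many cells, fewer cells that express a gene and less RNA per cell cannot be told apart, and this holds for every difference given here.

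**Figure D1:**
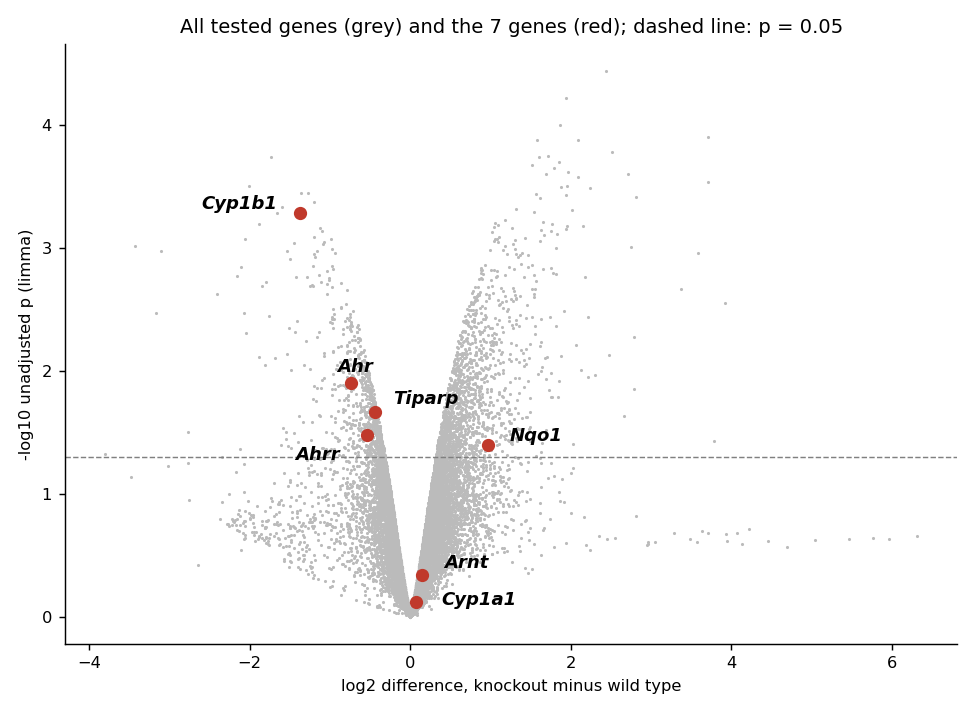
Each point is 1 tested gene, with the log2 difference, knockout minus wild type, on the horizontal axis and -log10 of limma's unadjusted p on the vertical axis, and the 7 genes are in red. Cyp1b1 (-1.37), Ahr (-0.73), Ahrr (-0.54) and Tiparp (-0.43) lie on the left above the dashed line at an unadjusted p of 0.05, Nqo1 (0.97) on the right above it, and Arnt (0.15) and Cyp1a1 (0.07) below it.

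Ahr encodes the ligand-binding receptor. Its brighter probe had processed signals, on the linear scale of the scanner files, of 8730 and 9104 in knockout cells, against 20776 and 17196 in wild-type cells. All further values are log2 signals minus the 75th percentile of the same array. On that scale Ahr was at 4.29 and 4.25 in knockout cells, against 5.19 and 4.81 in wild-type cells. The knockout arrays lay close together and well below both wild-type arrays, which differed from each other by more. The difference was -0.73 ± 0.17 (SE, n = 2 and 2), with a 95% interval of -1.21 to -0.26, an unadjusted p of 0.0126 and an adjusted p of 0.337 by limma.

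The other Ahr probe gave nearly the same difference. It stood at -0.91 and -1.39 in knockout cells, against -0.23 and -0.59 in wild-type cells, again without overlap. Its difference was -0.74 ± 0.24 (SE). The probes lie at 36182724 to 36182783 and 36188523 to 36188582 on chromosome 12 of mm9, the build in the scanner files, and both are assigned to the same RefSeq transcript, starting at its bases 5361 and 2574. Without knockout array 2 the difference of the brighter probe was -0.72 and its unadjusted p was 0.0511.

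Arnt encodes the nuclear partner that AHR shares with the hypoxia factor HIF1A, and its 3 probes disagreed. The brightest was at 1.09 and 1.49 in knockout cells, against 1.16 and 1.13 in wild-type cells, so the knockout arrays lay on both sides of the wild-type arrays. Its difference was 0.15 ± 0.18 (SE), with a 95% interval of -0.35 to 0.64. The second probe, at 95299434 to 95299493 on mm9 chromosome 3, was at 0.12 and 0.21 in knockout cells, against 0.45 and 0.54 in wild-type cells. There the groups did not overlap, and the difference was -0.33 ± 0.12 (SE) with an unadjusted p of 0.0533. The third probe, the only one of the 3 assigned to an Ensembl transcript, differed by -0.09 ± 0.20 (SE). The brightest probe turned to -0.014 with median scaling and to -0.055 without knockout array 2, and the mean over the 3 probes was -0.091. These data give no settled direction for Arnt.

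**Figure D2:**
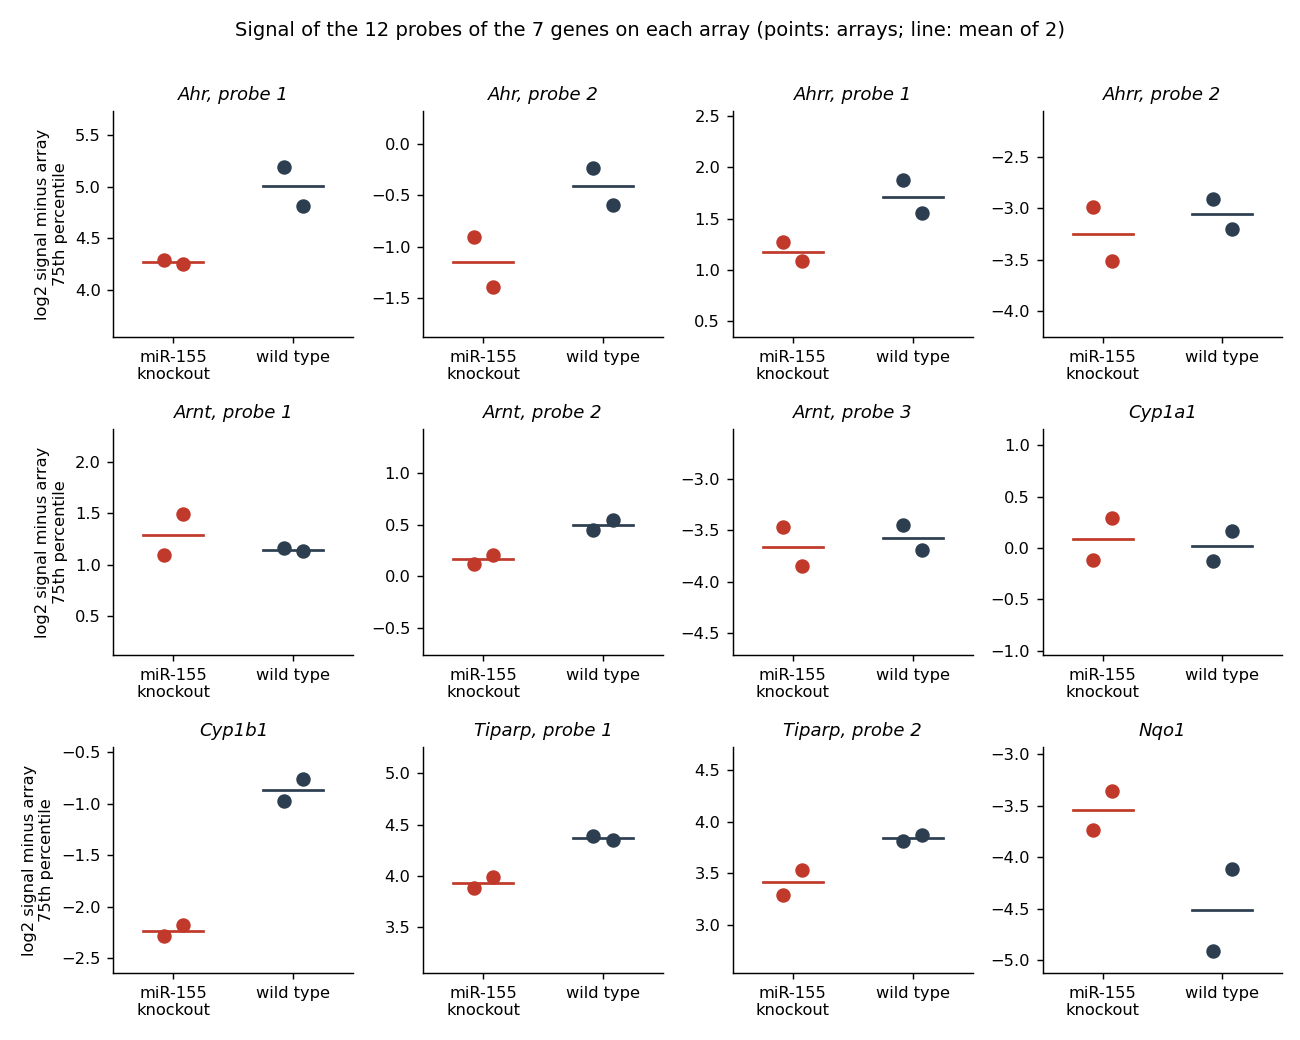
Each panel is 1 probe, with points for the 2 knockout arrays (left, red) and the 2 wild-type arrays (right, dark), lines at the group means, and the log2 signal minus the array's 75th percentile on the vertical axis, which spans the same number of units in every panel. Both probes of Ahr and of Tiparp and the single probe of Cyp1b1 separate the genotypes downwards, the Arnt probes disagree, and Nqo1 separates them upwards.

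Ahrr encodes the AHR repressor, a protein related to AHR that competes with it for ARNT and for its DNA element, and is itself induced by AHR. The brighter probe was at 1.27 and 1.08 in knockout cells, against 1.87 and 1.55 in wild-type cells. Both knockout arrays were below both wild-type arrays. The difference was -0.54 ± 0.17 (SE), with a 95% interval of -1.01 to -0.07 and an unadjusted p of 0.0334.

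The second Ahrr probe was dim, with linear signals of 56.3 and 41.8 in knockout cells and 75.4 and 66.7 in wild-type cells. On the log2 scale it stood at -2.99 and -3.51 in knockout cells, against -2.91 and -3.20 in wild-type cells, which overlap. Its difference was -0.20 ± 0.24 (SE), in the direction of the first but within the spread. The mean of both probes differed by -0.37 with an unadjusted p of 0.136. The brighter probe's difference lost its unadjusted p under 0.05 without wild-type array 1 (-0.38), knockout array 1 (-0.63) or knockout array 2 (-0.44).

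Tiparp encodes a mono-ADP-ribosyltransferase that AHR induces and that in turn promotes loss of AHR protein. The brighter probe was at 3.88 and 3.99 in knockout cells, against 4.39 and 4.35 in wild-type cells. The arrays of each genotype lay close together, and the genotypes did not overlap. The difference was -0.43 ± 0.12 (SE), with a 95% interval of -0.77 to -0.10 and an unadjusted p of 0.0215. The second probe was at 3.29 and 3.54 in knockout cells, against 3.81 and 3.87 in wild-type cells, a difference of -0.43 ± 0.14 (SE). Both probes lie on mm9 chromosome 3, at 65358749 to 65358808 and at 65357710 to 65357769. Tiparp's unadjusted p was 0.0764 without knockout array 1 (-0.38), 0.102 without wild-type array 1 (-0.42) and 0.0858 without wild-type array 2 (-0.45), and with the replicate number as a block it was 0.0650.

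Cyp1b1 encodes a cytochrome P450 enzyme that oxidises polycyclic aromatic compounds and steroids. Its single probe, at 80106547 to 80106606 on mm9 chromosome 17, was at -2.28 and -2.18 in knockout cells, against -0.97 and -0.76 in wild-type cells. Linear signals were 91.7 and 105 in knockout cells, against 290 and 362 in wild-type cells, all well above background. The gap between the genotypes was several times the gap between arrays of 1 genotype. The difference was -1.37 ± 0.14 (SE), with a 95% interval of -1.75 to -0.98, an unadjusted p of 0.00052 and an adjusted p of 0.254. By unadjusted p Cyp1b1 ranked 34 among the 19151 tested genes. Leaving out each array in turn gave -1.48 to -1.26.

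Cyp1a1, the enzyme gene most often used as a readout of AHR, differed by less than the spread between arrays. Its probe was at -0.11 and 0.29 in knockout cells, against -0.12 and 0.17 in wild-type cells. The arrays of the genotypes were interleaved. The difference was 0.07 ± 0.21 (SE) with a 95% interval of -0.50 to 0.64, which leaves room for a difference in either direction. The sign was not stable, at -0.092 with median scaling, -0.077 without wild-type array 1 and -0.14 without knockout array 2.

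Within each array, the log2 signal of Cyp1b1 minus that of Cyp1a1 was -2.17 and -2.47 in knockout cells, against -0.85 and -0.92 in wild-type cells. It differed by -1.44 between the genotypes, and the values of the knockout and the wild-type arrays did not overlap. Cyp1b1 set against Ahr differed by -0.64, and against Tiparp by -0.93, without overlap in either case. The gap to Ahr depended on the arrays, at -0.93 without wild-type array 1 and -0.34 without wild-type array 2. It also depended on the processing. With normexp background correction, run with an offset of 50 added to the signals, it was -0.15, and the gap to Tiparp was -0.46. Such an offset shrinks log2 differences of dim probes, such as those of Cyp1b1 and Nqo1, more than those of bright ones. The parts of the offset and of the background estimate were not separated. Ahr set against the brightest Arnt probe differed by -0.88. These 4 pairs were picked with the values known, and with 2 arrays against 2 an exact two-sided permutation test cannot give a p below 0.333, which is the value each pair gave. The pair values are thus a description, with no test that could pass.

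Nqo1 encodes a quinone reductase that is induced through AHR and, more widely, through the oxidative stress factor NRF2. Its probe was dim, with linear signals of 33.6 and 46.5 in knockout cells, against 18.8 and 35.4 in wild-type cells, which overlap. After scaling to the 75th percentile it stood at -3.73 and -3.36 in knockout cells, against -4.92 and -4.11 in wild-type cells, which do not. The difference was 0.97 ± 0.33 (SE), with a wide 95% interval of 0.07 to 1.87 and an unadjusted p of 0.0403. It moved to 0.55 with another background correction (normexp) and to 0.56 without wild-type array 1, and without any 1 of wild-type array 1, knockout array 1 or knockout array 2 the unadjusted p was 0.0649 or more. The probe lies in row 15 and column 162 of a grid of 384 rows and 164 columns. Among the 248 probes within 10 rows and columns of it, 12 were over 8-fold dimmer on wild-type array 2 than on every other array and 0 on the rest. Without wild-type array 2, Nqo1 differed by 1.37. The part of these 12 dimmer probes in the result was not tested.

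**Figure D3:**
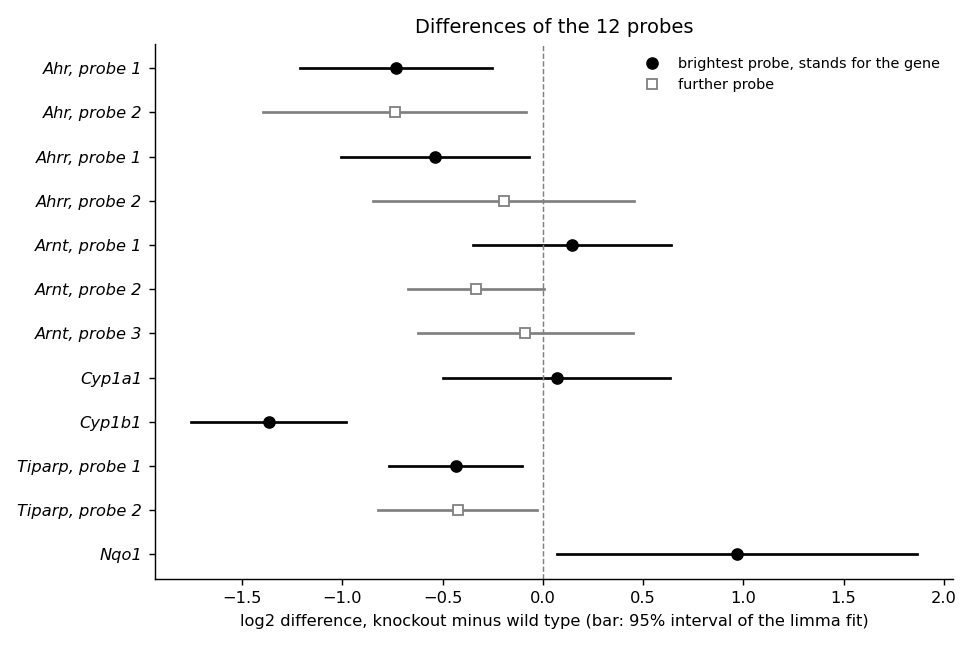
Log2 differences, knockout minus wild type, of the 12 probes, with 95% intervals of limma's fit (2 arrays per genotype). Filled points are the brightest probe of each gene and open squares the further probes. The intervals of both Ahr probes, both Tiparp probes, the brighter Ahrr probe and Cyp1b1 lie below 0, that of Nqo1 above 0, and those of the second Ahrr probe, the 3 Arnt probes and Cyp1a1 include 0.

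Over the 12 probes, 6 were lower at an unadjusted p under 0.05, against 3.98% of the 25477 tested probes, and 7 lay below wild type without overlap, against 22%. The 6 belong to 4 genes, and probes of 1 gene share their RNA and are not independent. As with the genes, these shares are a description, since the members were chosen with earlier results known. The surroundings of each probe on the array were compared too. The median difference of the bright probes within 10 rows and columns was 0.047 and 0.063 around the Ahr probes, 0.18 and 0.073 around those of Ahrr, 0.053 and 0.065 around those of Tiparp and 0.0066 around that of Cyp1b1. With each array centred on these local medians, the 4 lower genes were still lower at an unadjusted p under 0.05, with values of -0.78 for Ahr, -0.71 for Ahrr, -0.49 for Tiparp and -1.37 for Cyp1b1, and Nqo1 was at 0.89 with an unadjusted p of 0.0641.

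RefSeq's promoter table for GRCm38.p6, which covers 250 bases before to 50 after a gene's start, held 6 of the 7 genes, with Ahr as the exception. The promoters of the 3 lower target genes and of Cyp1a1 are shown, because Cyp1b1 and Cyp1a1 are both textbook targets and differed in these cells. The core letters GCGTG were searched on both strands and stand in capitals, as CACGC where they lie on the opposite strand. These letters are part of the longer element TNGCGTG and overlap the site of HIF1A with ARNT. Each sequence reads along the gene's own strand, which is minus at chr17:79715012-79715311 for Cyp1b1, minus at chr13:74292282-74292581 for Ahrr, plus at chr3:65528197-65528496 for Tiparp and plus at chr9:57697363-57697662 for Cyp1a1.
Cyp1b1: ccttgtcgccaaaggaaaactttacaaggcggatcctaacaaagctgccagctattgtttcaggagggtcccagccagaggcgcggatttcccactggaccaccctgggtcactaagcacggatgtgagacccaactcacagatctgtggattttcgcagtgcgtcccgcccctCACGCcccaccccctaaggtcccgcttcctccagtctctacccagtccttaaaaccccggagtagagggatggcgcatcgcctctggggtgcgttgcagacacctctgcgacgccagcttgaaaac
Ahrr: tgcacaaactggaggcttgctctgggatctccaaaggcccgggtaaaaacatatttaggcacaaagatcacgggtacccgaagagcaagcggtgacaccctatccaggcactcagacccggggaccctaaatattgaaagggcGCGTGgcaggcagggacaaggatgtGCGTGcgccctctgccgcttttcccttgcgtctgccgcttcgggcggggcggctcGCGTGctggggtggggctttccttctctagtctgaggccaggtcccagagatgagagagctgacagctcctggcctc
Tiparp: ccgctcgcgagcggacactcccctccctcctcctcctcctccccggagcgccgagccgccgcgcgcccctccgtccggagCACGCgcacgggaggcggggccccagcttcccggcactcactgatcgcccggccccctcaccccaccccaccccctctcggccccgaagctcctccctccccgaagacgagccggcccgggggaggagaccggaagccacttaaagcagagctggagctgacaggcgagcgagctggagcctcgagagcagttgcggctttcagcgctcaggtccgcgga
Cyp1a1: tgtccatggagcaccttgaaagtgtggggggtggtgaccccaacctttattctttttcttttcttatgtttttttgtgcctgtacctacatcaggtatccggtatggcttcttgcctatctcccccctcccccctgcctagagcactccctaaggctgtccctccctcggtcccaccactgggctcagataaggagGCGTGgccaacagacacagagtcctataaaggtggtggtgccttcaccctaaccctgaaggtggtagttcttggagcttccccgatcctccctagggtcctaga

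The Ahrr window held 3 cores, starting 107, 82 and 27 bases before the start, and 1 of them lies in the longer TNGCGTG. Cyp1b1 held 1 core 76 bases before the start, Tiparp 1 at 170 bases, Cyp1a1 1 at 54 bases and Arnt 1 at 29 bases, and Nqo1 held 0. Of all 32851 promoters in the table, 32.4% hold at least 1 core, 3.91% hold 3 or more, and 5.07% hold TNGCGTG. A match is a run of letters and not a measured site. Well-known elements of these genes can lie outside this window, and binding was not measured here.

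Around the 7 genes, lists of related genes were compared by counts and medians. Of all tested genes, 47.6% were below 0 and 52.4% above 0. At an unadjusted p under 0.05, 4.13% of all tested genes were lower and 7.23% higher. In the cytosolic AHR complex, with 7 of 7 genes tested, 1 was lower (Ahr itself) and 1 higher at an unadjusted p under 0.05, and the median was 0.039. The higher one was Src, the gene of a kinase found with the resting receptor, at -3.50 and -3.59 in knockout cells and -4.06 and -4.55 in wild-type cells, a difference of 0.76 ± 0.21 (SE). The bHLH-PAS relatives of AHR and their coactivators, with 16 of 19 tested, had a median of 0.081, with 2 lower and 1 higher at that p. Npas4, an activity-induced factor best known from neurons, stood at -3.33 and -2.56 in knockout cells, against -1.57 and -1.25 in wild-type cells, and differed by -1.54 ± 0.31 (SE). The clock gene Per2 differed by -0.44 and Sim2 by 0.47.

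Other genes reported to be induced through AHR differed in both directions. Of 13 listed, 8 were tested, and their median was -0.096. Lower values were found for 5, against 47.6% of all tested genes, and higher values for 3, against 52.4%. Scin, the gene of the actin-severing protein scinderin, was higher at an unadjusted p of 0.00451, at -3.29 and -3.50 in knockout cells, against -4.14 and -4.15 in wild-type cells, and 0 were lower at that threshold. Il22, the gene of the cytokine that AHR ligands raise in Th17 cells, was at -2.05 and -2.75 in knockout cells, against -1.84 and -2.03 in wild-type cells, a difference of -0.47 ± 0.28 (SE) with an unadjusted p of 0.162. The groups did not overlap for Il22, but the knockout arrays differed from each other by more than the wild-type arrays.

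Targets of NRF2 and its regulator Keap1, set beside Nqo1, had a median of 0.026, with 11 of 12 genes tested. Of these, 6 were higher, against 52.4% of all tested genes, and 5 lower, against 47.6%. Osgin1, an oxidative stress response gene, was the only 1 at an unadjusted p under 0.05, higher by 0.49 ± 0.15 (SE). The lower genes included Keap1 (-0.12) and Gsr (-1.63). Gsr was at 0.32 and 3.89 in knockout cells, against 3.71 and 3.76 in wild-type cells, and another Gsr probe differed by 0.21. The list of tryptophan uptake and metabolism, from which natural AHR ligands arise, had a median of 0.27, with 10 of 14 genes tested. Of these, 7 were higher, against 52.4% of all tested genes, and 3 lower, against 47.6%. Tph1, which encodes tryptophan hydroxylase, the first enzyme of serotonin synthesis, differed most at an unadjusted p of 0.000868. It was at -2.61 and -2.84 in knockout cells, against -4.11 and -3.93 in wild-type cells, a 2.46-fold higher signal. Hypoxia targets of HIF1A with ARNT had a median of -0.17 over 13 of 13 genes. Of these, 9 were lower, against 47.6% of all tested genes, and Ankrd37 at -0.39 was the only 1 at an unadjusted p under 0.05. In these 6 lists, 0 genes passed limma's adjusted p.

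**Figure D4:**
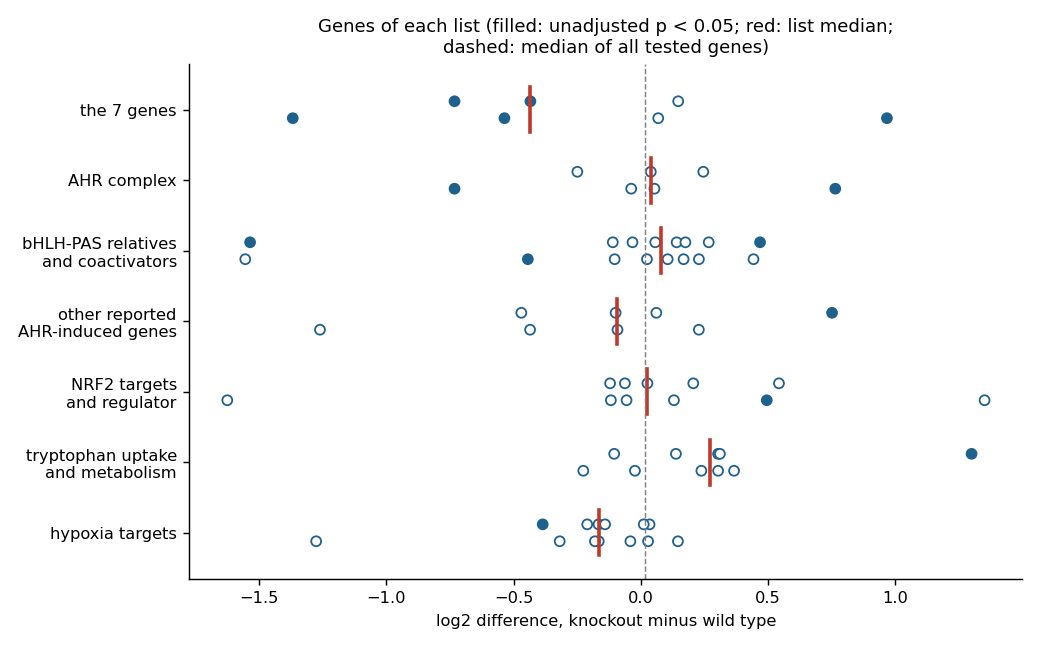
Each point is 1 tested gene, placed by its log2 difference, knockout minus wild type, in the 7 genes and in 6 lists of related genes. Filled points have an unadjusted p under 0.05, red bars are list medians and the dashed line is the median of all tested genes (0.016). The median of the 7 genes is -0.43, and those of the lists run from -0.17 for hypoxia targets to 0.27 for tryptophan genes.

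Markers of the sorted cells and of other cell types were set beside these values. All 6 markers of the Th17 sort had lower values in knockout cells, against 47.6% of all tested genes. Of these, 4 were lower at an unadjusted p under 0.05, against 4.13% of all tested genes. For markers higher at that p, the share of all tested genes was 7.23%. Cd3e and Cd4 did not reach that p, at -0.06 and -0.16 with overlapping arrays, and another Cd4 probe was at 0.035. The summed level of the 6, in units of the array's 75th percentile, was 104 to 121 in knockout cells, against 135 to 140 in wild-type cells. Cd3e made up 48.7% to 58.6% of that sum and Cd4 27.9% to 32.5%. Il17f, the gene behind the reporter, differed by -2.01. Summed markers of CD8, NK and gamma-delta T cells (7 of 9 tested, 2 higher at that p) were at 12.3 to 15.3 in knockout cells and 16.4 to 20.0 in wild-type cells. Klrd1, the gene of the NK receptor subunit CD94, made up 85.6% to 91.8% of that sum on each array, and it differed by -0.47 with an unadjusted p of 0.0798. Of the 7 tested, 3 were higher and 4 lower in knockout cells. Cd8b1 (-0.13), Klrk1 (-0.13) and Sox13 (-0.08) were lower and Blk (0.73) was higher, each at an unadjusted p above 0.05. The 2 genes that were higher at an unadjusted p under 0.05 went the other way from the sum. Cd8a was at -2.65 and -2.37 in knockout cells, against -3.89 and -3.73 in wild-type cells, a 2.46-fold higher signal with an unadjusted p of 0.00102. Trgv2, a gamma chain gene of the T cell receptor, was at -2.67 and -3.23 in knockout cells, against -5.57 and -5.76 in wild-type cells, a 6.56-fold higher signal with an unadjusted p of 0.000253, and was well above background on 3 of the 4 arrays. The summed markers of macrophages and dendritic cells (all 6 tested, 0 at an unadjusted p under 0.05) were at 5.92 to 6.90 in knockout cells and 5.08 to 5.52 in wild-type cells. B cell markers (3 of 4 tested, 1 lower, Ms4a1 not well above background) were at 0.564 to 0.680 in knockout cells and 0.765 to 1.07 in wild-type cells, innate lymphoid and mast cell markers (2 of 4 tested, Fcer1a and Cpa3 not well above background) at 0.94 to 1.1 in knockout cells and 0.546 to 0.823 in wild-type cells. Epithelial markers (4 of 4 tested, 1 higher) were at 13.3 to 17.2 in knockout cells and 8.78 to 14.3 in wild-type cells, of which Krt18 made up 88.7% to 94.4%. The part of these cells in the Ahr, Ahrr, Tiparp and Cyp1b1 differences was not tested.

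Genes with the pattern most like that of Ahr or Cyp1b1 were found by the distance between their 4 array values, each set centred on its mean. The named genes are the nearest among those with a gene symbol, leaving out clone and predicted-gene names. The counts within 0.2 cover all tested genes. For Ahr these were Fam171b, Zfp459, Kifc3, Gspt2 and Tmem151b, at distances of 0.074 to 0.13 log2 units, and 25 genes lay within 0.2. For Cyp1b1 they were Nebl, Rnase12, Crispld2, Syt11 and Rbpms2, at 0.13 to 0.21, and 4 genes lay within 0.2. Rnase12 was not well above background on either knockout array. With 4 arrays such likeness is a description of these arrays only.

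**Figure D5:**
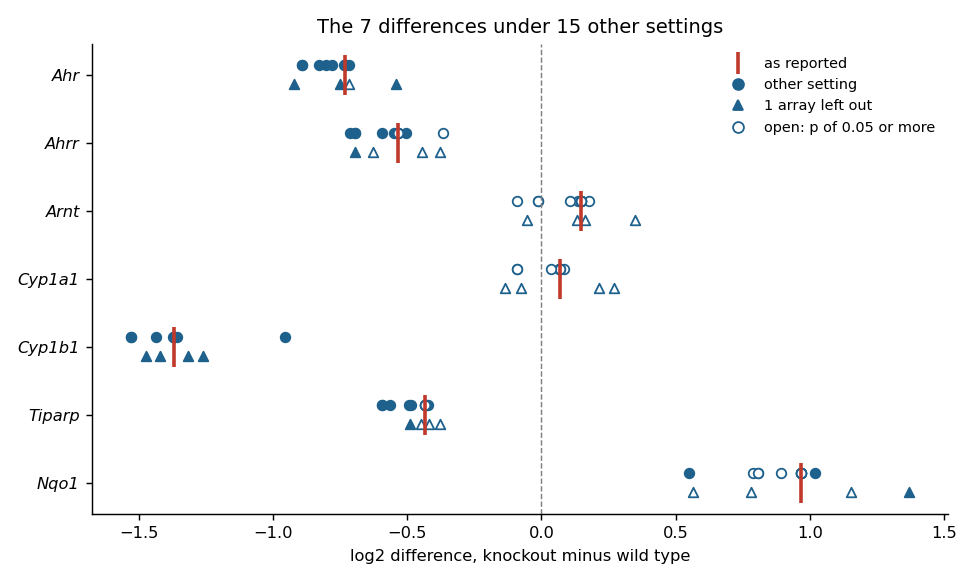
Log2 difference, knockout minus wild type, of each gene as reported (red bar), under 11 other ways of processing (circles) and with 1 array left out (triangles). Median scaling and the series matrix gave the same values. Open symbols have an unadjusted p of 0.05 or more. Cyp1b1 stays between -1.53 and -0.96 with an unadjusted p under 0.05 throughout, Ahr stays between -0.92 and -0.54, and Arnt and Cyp1a1 lie on both sides of 0.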

How the data were processed

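RNA from 2 miR-155 knockout and 2 wild-type samples was labelled with Cy3 and run on 1-colour Agilent arrays. Per the file headers, the authors' intensity values (processed signals) came from Agilent Feature Extraction 10.5.1.1 with background subtraction and spatial detrending. Per the file headers, the scanner files also give a fitted multiplicative surface, a linear ratio. The deposited matrix of log2 values differed from log2 processed signal by 1 constant per array, within 0.001 for 99.4% to 99.5% of probes, and was used as an alternative only.

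Control and outlier spots were left out, spots of a probe were averaged, and the 75th percentile of an array was subtracted from its log2 signals. Probes were named through RefSeq accessions (GRCm38.p6). Testing required a probe to be flagged well above background on the 2 arrays of at least 1 genotype, and a gene was represented by its brightest probe. limma 3.58.1 in R 4.3.3 (lmFit, eBayes) was run across 19151 genes with Benjamini-Hochberg adjustment, at 2 residual and 2.16 prior degrees of freedom, and a second time across all 25477 tested probes for the further probes. It was tested on simulated data. Genes named beside the 7 were list members at an unadjusted p under 0.05 (failing that, the 2 largest differences), and Il22 and Il17f where set beside a result. The markers Cd3e, Cd4, Cd8a, Cd8b1, Klrd1, Klrk1, Sox13, Blk, Trgv2 and Krt18 were chosen after their values were seen. Keap1 and Gsr were also named after their values were seen. The 5 genes nearest in pattern to Ahr and to Cyp1b1 were taken among genes with a gene symbol, leaving out clone and predicted-gene names. The members and lists were chosen with earlier results of these data known. Some genes are not reported here.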

Additional observations from a re-analysis of the deposited data

How the results depend on the processing

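Each result was recomputed under 15 alternatives, of which centring on neighbouring probes was chosen after seeing the data. All arrays of the series matrix share the same median, so it gave the same values as median scaling. These are thus not separate alternatives in the counts that follow. The other filters on dim probes, the replicate number as a block and limma's intensity trend kept each member's difference and changed only its p. For Cyp1b1, Cyp1a1 and Nqo1, with 1 probe each, so did the mean over probes. Normexp was run with an offset of 50 added to the signals. Cyp1b1 was lower at an unadjusted p under 0.05 in 15 of 15 (-1.53 to -0.96), Ahr in 14, Tiparp in 11, Ahrr in 10, and Nqo1 was higher in 7. With 1 array left out, the lone array is assumed to vary like the other genotype's. The ranges were then -0.92 to -0.54 for Ahr, -0.70 to -0.38 for Ahrr, -0.49 to -0.38 for Tiparp, -1.48 to -1.26 for Cyp1b1, 0.56 to 1.37 for Nqo1, -0.055 to 0.35 for Arnt and -0.14 to 0.27 for Cyp1a1. The count of lower genes was 2 to 3 instead of 4, that of higher genes 0 to 1 instead of 1, and that of all genes past the adjusted p 0 to 50 instead of 0 (27 without wild-type array 1, 50 without knockout array 2). Nqo1 lost its unadjusted p under 0.05 with median scaling (0.81), quantile scaling (0.79), the series matrix (0.81), no filter on dim probes (0.97) and neighbourhood centring (0.89), so that 0 genes were higher. Ahrr lost it with no filter (-0.54, p of 0.0512) and with the mean over probes (-0.37). Arnt was reversed with median scaling (-0.014), the series matrix (-0.014) and the mean over probes (-0.091), and Cyp1a1 with median scaling (-0.092) and the series matrix (-0.092). Median scaling moved the median of all genes to -0.14, so values under it are to be read against that. Of all genes at an unadjusted p under 0.05, 790 were lower and 1384 higher as reported, 2211 and 733 with median scaling, 1156 and 3083 with normexp, and 1267 and 1337 with neighbourhood centring. The cause was not tested. Replicate numbers are shared by the genotypes, but the deviations of same-numbered arrays had a correlation of -0.00094, so the numbers were not taken as pairs. With the replicate number as a block, Tiparp (-0.43) had an unadjusted p of 0.0650, 3 genes were lower and 1 higher, and 0 genes passed the adjusted p. The knockout arrays' slide row and the small number of arrays limit every value.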

Other observations

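The processed signal of knockout array 1, the array with the less even surface, was also divided by its own fitted surface. That gave -0.83 for Ahr, -0.60 for Ahrr, -0.56 for Tiparp, -1.36 for Cyp1b1 and 1.02 for Nqo1, each with an unadjusted p under 0.05, against -0.73, -0.54, -0.43, -1.37 and 0.97 as reported.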
